A study of Mus musculus with 2 samples.

Results

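The genes described here are the secreted and membrane-bound metalloproteases that cut extracellular matrix and cell surface proteins, together with the inhibitors that hold them in check. They comprise the matrix metalloproteases (MMPs), the ADAM and ADAMTS proteases, the ADAMTS-like proteins, the 2 meprins, Adamdec1 and the tissue inhibitors of metalloproteases (TIMPs). They were taken from the array by gene name, which picked 134 spots, 116 probes and 86 genes of 31881 genes on the array. The naming rule used no measured value, but the set was chosen with earlier results of these data known. The RNA came from liver sinusoidal endothelial cells, or LSEC, whose thin and porous sheets form the wall of the liver's capillaries, of 1 ob/ob mouse and 1 WT mouse. Both were males aged 8 weeks. Mice of the ob/ob genotype lack functional leptin, the satiety hormone of fat tissue, and become obese. The labels used here do not name a strain. Both livers were dissociated with collagenase, both cell preparations spent a night in serum-containing medium, and each RNA was labelled with Cy3 and hybridised to 1 array. Every difference below therefore compares 1 array with 1 array, has no replicate check, and carries no test or p-value.

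MMPs are made as inactive zymogens and, once activated, degrade collagens, laminin, fibronectin and other matrix proteins. ADAMs sit in the membrane and release the outer part of receptors, adhesion molecules and growth factors, while ADAMTS enzymes are secreted and cut proteoglycans, procollagens and von Willebrand factor. The TIMPs bind the active site of these enzymes. In the liver, remodelling of the matrix under the sinusoidal endothelium is carried out by endothelial cells, macrophages and hepatic stellate cells together.

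Signals are given as scaled intensity, the processed intensity of a probe in percent of the 75th percentile of its own array, which was an intensity of 1430 on the ob/ob array and 988.6 on the WT array. The error beside a log2 difference is the SD from the scanner's error model, which covers the spot reading and not the spread between mice. Of all spots, 64.8% were well above background on the ob/ob array and 58.6% on the WT array. Signals of different probes are not set against each other as amounts of RNA, because probes differ in how strongly they bind. Sinusoidal and general endothelial identity was checked with 10 markers each. All 10 sinusoidal markers, among them Stab2 and Lyve1, and all 10 general endothelial markers were measured on both arrays and lay within 2-fold, with median log2 differences of -0.24 and 0.01. The summed scaled intensity of the sinusoidal markers was 7667% in ob/ob LSEC and 9519% in WT LSEC.

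Markers of other liver cells were on the array as well and differed between the preparations. Sums run over all genes of a list that are on the array. Of 12 measured macrophage markers 11 were at least 2-fold higher in ob/ob LSEC, with a median log2 difference of 1.78 and summed scaled intensities of 15211% in ob/ob LSEC and 5524% in WT LSEC. Of 9 measured stellate cell and fibroblast markers 8 were at least 2-fold higher (median 2.04, sums of 3552% in ob/ob LSEC and 879% in WT LSEC), and of 11 hepatocyte markers 9 were (median 2.31, sums of 3073% in ob/ob LSEC and 539% in WT LSEC). The stellate cell and fibroblast sums came mostly from Dcn, which alone had 3322% in ob/ob LSEC and 800% in WT LSEC. Of 4 measured cholangiocyte markers 3 were at least 2-fold higher, with sums of 554% in ob/ob LSEC and 57.3% in WT LSEC. The 3 were Spp1, Krt8 and Krt18, and Spp1 alone had 390% in ob/ob LSEC and 29.5% in WT LSEC. Cftr was at -0.31. Krt7, Krt19, Epcam and Sox9 were dim and measured in ob/ob LSEC only, with bounds of at least 1.01-, 1.87-, 1.05- and 1.55-fold. The part of these cells in the protease differences was not tested, and in such a mixed preparation more cells of a type and more RNA per cell cannot be told apart. Of 13 macrophage markers on the array Cd163 alone was at background on both. Neutrophil markers ran both ways. Of the 4 measured on both arrays 2 were at least 2-fold lower in ob/ob LSEC (Mpo at -1.32 and Elane at -1.01), while S100a9 and S100a8 were well above background in ob/ob LSEC only and Ngp and Cxcr2 on neither array. Retnlg was measured in WT LSEC only, with 0.208% in ob/ob LSEC and 1.51% in WT LSEC, at least 1.85-fold lower in ob/ob LSEC. The neutrophil sums were 44.9% in ob/ob LSEC and 65.1% in WT LSEC, and those of all 11 lymphocyte markers were 70.3% in ob/ob LSEC and 50.2% in WT LSEC. The 3 lymphocyte markers measured on both arrays lay within 2-fold, with a median log2 difference of 0.19. Of 4 lymphocyte markers measured in ob/ob LSEC only, Gzmb and Cd3d had the largest bounds, at least 8.80-fold and at least 6.44-fold higher, while Cd8a, Cd79a and Ms4a1 were among those above background on neither array. The 1 measured mesothelial marker lay within 2-fold, and the other 5, Msln and Wt1 among them, were at background.

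**Figure D1:**
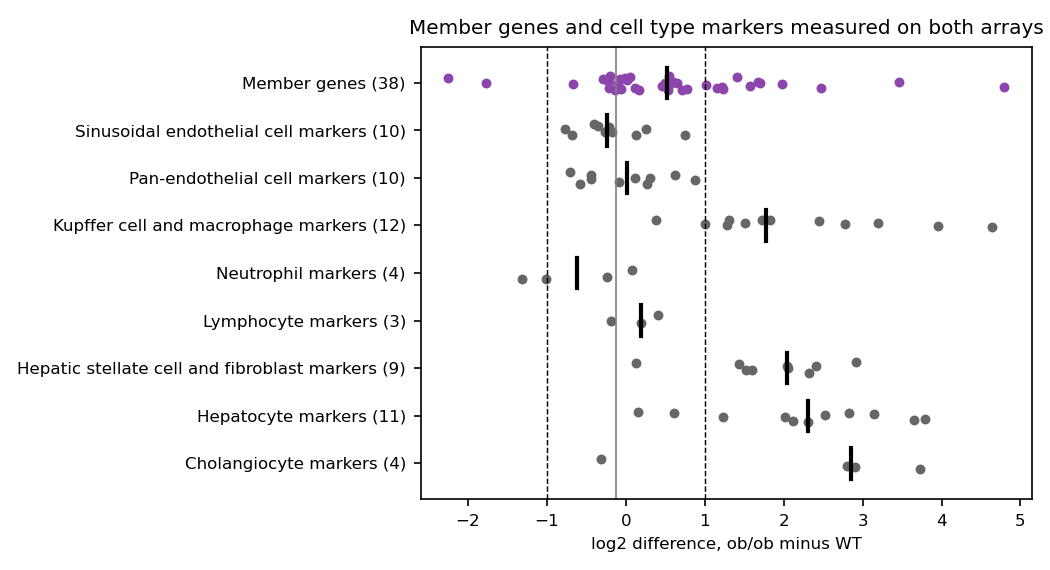
Each point is 1 gene measured on both arrays, placed by its log2 difference, ob/ob minus WT. Black bars are list medians, the grey line is the median of all measured genes (-0.12) and dashed lines mark 2-fold. The member genes spread from -2.25 to 4.79 around a median of 0.52, the endothelial lists stay within 2-fold, and the macrophage, stellate cell, hepatocyte and cholangiocyte markers lie mostly to the right.

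Of the 86 protease and inhibitor genes, 38 gave a signal well above background on both arrays. A further 10 did so in ob/ob LSEC only, 1 in WT LSEC only and 37 on neither array. Among the 38, 12 genes were at least 2-fold higher in ob/ob LSEC (31.6%), against a background of 5.82% of 18139 genes measured on both arrays. At least 2-fold lower were 2 genes (5.26%), against 2.29% of all measured genes. The remaining 24 lay within 2-fold, 13 with a positive and 11 with a negative difference. The median log2 difference of the 38 was 0.52 (quartiles -0.10 and 1.20), and that of all measured genes was -0.12 (quartiles -0.34 and 0.16). Measured on the ob/ob array only were 11.6% of the 86 genes, beside 6.84% of all genes on the array, and for the WT array only the share of all genes was 0.856%. The median of these genes stayed above that of all genes under each of 10 other ways of processing, by 0.25 to 0.65. With the normexp background model and the same scaling, however, the median of the members was -0.01, with 5 members at least 2-fold higher and 9 lower. The array as a whole moved the same way under that model, with a median of -0.29. Among its 18139 measured genes, 21.1% fell past 2-fold in ob/ob LSEC and 2.03% rose past it. The rise in lower calls was thus not confined to the members.

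**Figure D2:**
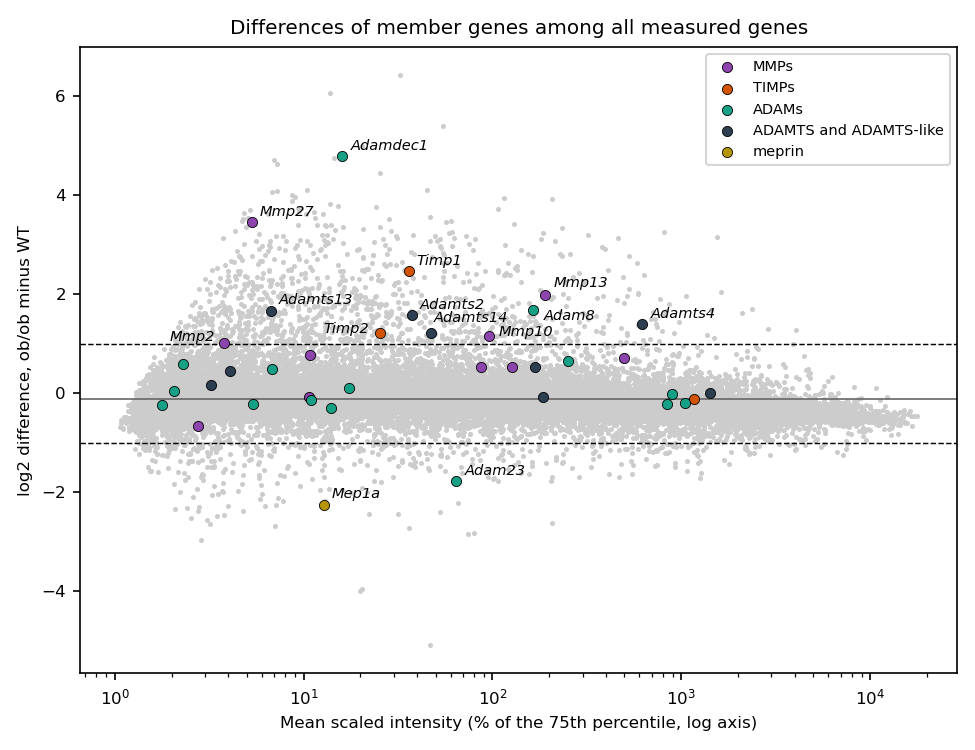
The log2 difference, ob/ob minus WT, is plotted against the mean scaled intensity on a log axis, with all 18139 measured genes in grey and the 38 measured members coloured by family. Dashed lines mark 2-fold and the solid line the median of all genes; the 14 named members lie outside the dashed lines, 12 above and 2 below.

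The families differed in how many members passed 2-fold. Of 10 measured MMPs 4 were at least 2-fold higher and none lower, and their median log2 difference was 0.74. Of 7 measured ADAMTS genes 4 were at least 2-fold higher and none lower (median 1.23), and of 3 measured TIMPs 2 were higher (median 1.22). The 15 measured ADAMs had a median of -0.01, with 2 at least 2-fold higher and 1 lower. The medians of the MMPs, ADAMTS genes and TIMPs were positive under every alternative run, whereas that of the ADAMs was 0.08 when genes measured on at least 1 array were included and negative under the others. The difference between families was not tested.

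**Figure D3:**
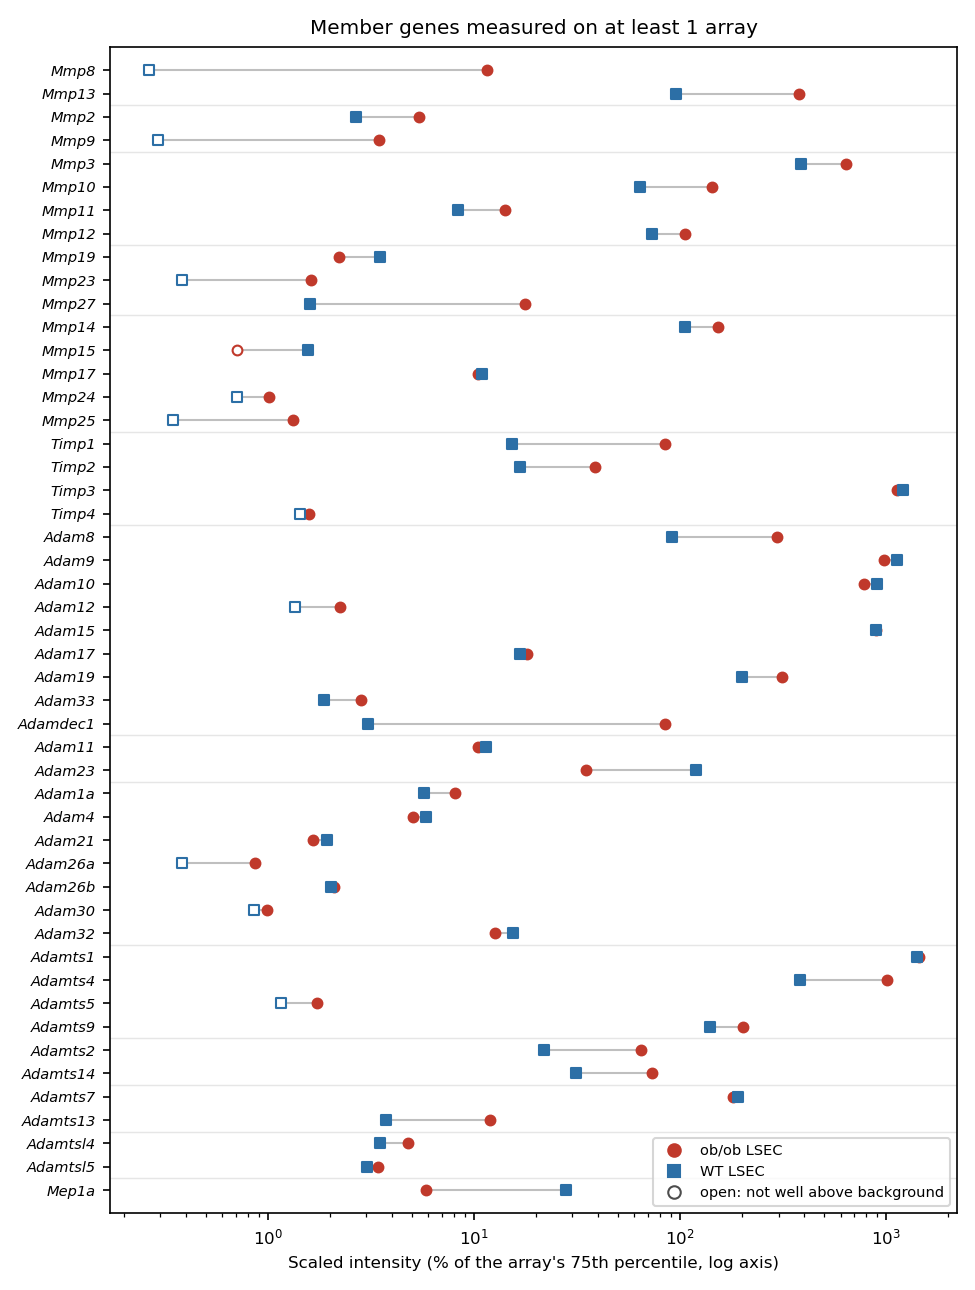
Scaled intensity of the 49 genes measured on at least 1 array, on a log axis, with ob/ob as red circles and WT as blue squares, ordered by role from collagenases at the top to the meprin at the bottom. Open symbols were not well above background. Long lines with red to the right include Mmp8, Mmp13, Mmp9, Mmp23, Mmp25, Mmp27, Timp1, Timp2, Adam8, Adamdec1, Adamts4, Adamts2, Adamts14 and Adamts13. Those with blue to the right include Adam23 and Mep1a.

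Among the collagenases, the enzymes that can cut fibrillar collagen, Mmp13 and Mmp8 were found. Mmp13, the main interstitial collagenase of rodents, had a scaled intensity of 379% in ob/ob LSEC and 95.9% in WT LSEC, a log2 difference of 1.98 ± 0.20, or 3.95-fold. Mmp8, known as the neutrophil collagenase, had 11.6% in ob/ob LSEC and 0.264% in WT LSEC, where it was not well above background. Such a gene has only a bound, the brighter value over the dimmest measured signal of the other array (1.25% on the WT array and 0.818% on the ob/ob array) or over the dim probe's own signal where that is higher. By this bound Mmp8 was at least 9.30-fold higher in ob/ob LSEC. With the normexp background model no fold was left (log2 bound -0.024), and with quantile normalization after it the log2 bound was 1.25. Mmp1a and Mmp1b, the mouse counterparts of human interstitial collagenase, were above background on neither array.

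Both gelatinases, which degrade denatured collagen and basement membrane collagen, gave dim signals. Mmp2 (gelatinase A) had 5.39% in ob/ob LSEC and 2.66% in WT LSEC, a log2 difference of 1.02 ± 0.25, just past 2-fold. Mmp9 (gelatinase B) was printed at 10 spots, all 10 well above background on the ob/ob array and none on the WT array. The 10 spots ran from 3.24% to 4.06% in ob/ob LSEC (median 3.45%) and from 0.250% to 0.651% in WT LSEC (median 0.301%), so the arrays did not overlap at any spot. From the 6 spots with no uneven or outlying reading on either array, Mmp9 was at least 2.75-fold higher in ob/ob LSEC, a log2 bound of 1.46. That bound was -1.10, and so no fold, with normexp, and 0.51 with normexp and quantile normalization.

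The stromelysins and the macrophage elastase, with broad action on matrix proteins and on other zymogens, were measured on both arrays. Mmp10 (stromelysin 2) had 143% in ob/ob LSEC and 64.0% in WT LSEC, a log2 difference of 1.16 ± 0.20. Mmp3 (stromelysin 1) had a difference of 0.71, with 634% in ob/ob LSEC and 387% in WT LSEC. Mmp12, the macrophage elastase, had 106% in ob/ob LSEC and 72.6% in WT LSEC, a difference of 0.54. All 3 were brighter in ob/ob LSEC, and only Mmp10 of them passed 2-fold. The 2 probes of Mmp11 (stromelysin 3) gave 14.2% and 6.95% in ob/ob LSEC against 8.32% and 3.31% in WT LSEC, log2 differences of 0.77 and 1.07 on either side of the 2-fold line. Mmp7 (matrilysin) was at background on both arrays.

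Mmp27, a little-studied MMP with a stromelysin-like domain plan, had the largest difference of any MMP measured on both arrays. Its probe at the far end of the gene gave 17.6% in ob/ob LSEC and 1.60% in WT LSEC, a log2 difference of 3.46 ± 0.31, which ranked 39 among 18139 genes. The WT value lies close to the dimmest measured signal of that array. The other Mmp27 probe, nearer the start of the gene, was at background on both arrays, with 0.272% in ob/ob LSEC and 0.304% in WT LSEC. Mmp19, which also cuts basement membrane proteins, had 2.20% in ob/ob LSEC and 3.49% in WT LSEC, a difference of -0.67 ± 0.25. Mmp23 had 1.62% in ob/ob LSEC and 0.383% in WT LSEC, at background there, and was at least 1.30-fold higher. Mmp20 (enamelysin, an enzyme of tooth enamel), Mmp21 and Mmp28 were above background on neither array.

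The membrane-type MMPs are anchored at the cell surface. Mmp14, which activates the Mmp2 zymogen, had 153% in ob/ob LSEC and 105% in WT LSEC, a log2 difference of 0.54 ± 0.20 that stayed within 2-fold. Mmp17 had 10.5% in ob/ob LSEC and 10.96% in WT LSEC, a difference of -0.06. Mmp25, known from leukocytes, had 1.32% in ob/ob LSEC and 0.346% in WT LSEC, at least 1.06-fold higher, a bound that was lost with array-median scaling, quantile normalization and normexp with 75th-percentile scaling. With the processing used here, no membrane-type MMP had a difference or a bound of 2-fold. Mmp15 was the only member measured on the WT array alone, with 0.706% in ob/ob LSEC and 1.56% in WT LSEC, at least 1.91-fold lower in ob/ob LSEC. The log2 bound of Mmp15 toward WT LSEC was 0.93. It was 1.21 with array-median scaling and with quantile normalization. With normexp it was 1.81 under 75th-percentile scaling and 0.17 under quantile normalization. Mmp24 was well above background in ob/ob LSEC only, with 1.01% in ob/ob LSEC and 0.707% in WT LSEC, and has no fold because its bound lies under 1. Mmp16 was at background on both arrays.

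The collagenases, Mmp3, Mmp10 and several other MMPs lie side by side in 1 cluster on mouse chromosome 9. Mmp11 (stromelysin 3) is not part of it and lies on chromosome 10. In the coordinates of the array (build mm9) the probes of its 10 genes run from Mmp13 to Mmp7 across chr9:7282762-7697700, a stretch of 414.9 kb. Of the 10 genes 5 were measured on both arrays, Mmp8 on the ob/ob array only and 4 (Mmp1b, Mmp1a, Mmp20 and Mmp7) on neither. All 5 measured on both were brighter in ob/ob LSEC, 3 of them at least 2-fold. Beside them, 37.3% of all genes and 65.8% of the members measured on both arrays had a positive difference. The next gene outside the cluster on the Mmp13 side, Dcun1d5, had 520% in ob/ob LSEC and 598% in WT LSEC, a difference of -0.20. Within the cluster, genes at background alternated with measured ones, as Mmp1b lies between Mmp12 and Mmp3 and Mmp1a between Mmp3 and Mmp10.

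**Figure D4:**
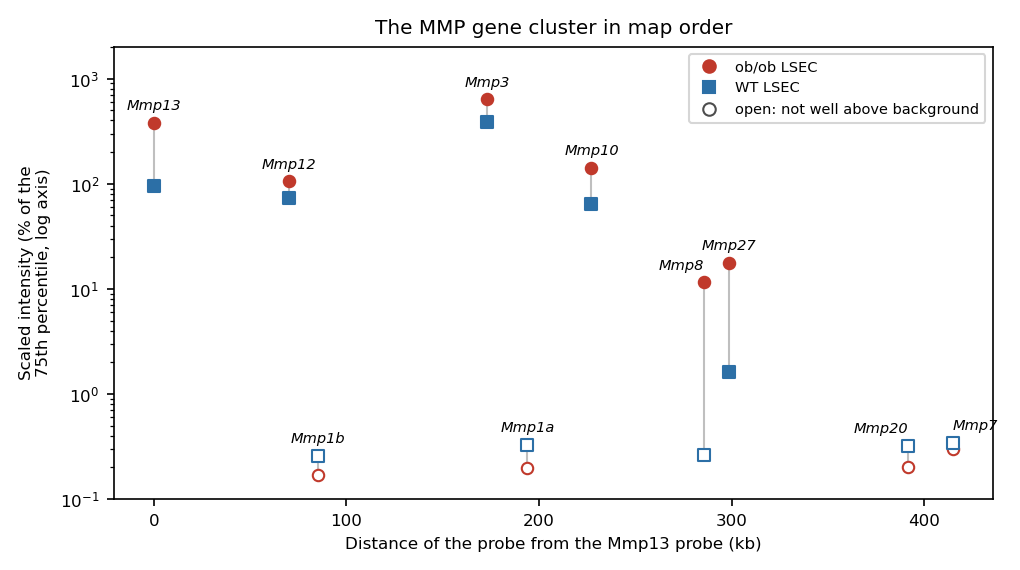
Scaled intensity on a log axis of the 10 MMP genes of the cluster, against the distance of each probe from the Mmp13 probe in kb. Red circles are ob/ob, blue squares are WT and open symbols were not well above background. Mmp13, Mmp12, Mmp3, Mmp10, Mmp8 and Mmp27 have red above blue, and Mmp1b, Mmp1a, Mmp20 and Mmp7 stay under 0.5% on both arrays.

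Because the measured genes of the cluster shared a direction, the promoters of all its genes are shown. Capitals mark the letters TGANTCA, the core that AP-1 factors of the Fos and Jun families are known to bind. This core is the same on both strands. The stretches are RefSeq sequence of build GRCm38.p6, 5′ to 3′ along each gene, from position -100 to position 10 around the annotated start, taken from windows of 250 bases before and 50 after it.
Mmp13, chr9:7272414-7272523, plus strand: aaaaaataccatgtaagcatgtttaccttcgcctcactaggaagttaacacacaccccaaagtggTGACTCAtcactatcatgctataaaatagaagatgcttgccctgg
Mmp12, chr9:7347274-7347383, plus strand: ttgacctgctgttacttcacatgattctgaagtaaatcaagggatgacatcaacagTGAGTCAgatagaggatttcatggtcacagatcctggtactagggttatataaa
Mmp1b, chr9:7388017-7388126, minus strand: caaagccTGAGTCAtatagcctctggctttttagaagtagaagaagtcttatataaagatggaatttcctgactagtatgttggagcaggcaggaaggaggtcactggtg
Mmp3, chr9:7445722-7445831, plus strand: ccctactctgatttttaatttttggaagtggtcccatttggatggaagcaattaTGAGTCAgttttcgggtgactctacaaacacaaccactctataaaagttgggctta
Mmp1a, chr9:7464041-7464150, plus strand: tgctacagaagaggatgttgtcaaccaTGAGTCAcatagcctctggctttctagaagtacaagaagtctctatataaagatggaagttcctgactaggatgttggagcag
Mmp10, chr9:7502242-7502351, plus strand: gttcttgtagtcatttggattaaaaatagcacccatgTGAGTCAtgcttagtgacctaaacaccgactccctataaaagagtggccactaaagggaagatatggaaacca
Mmp8, chr9:7558329-7558438, plus strand: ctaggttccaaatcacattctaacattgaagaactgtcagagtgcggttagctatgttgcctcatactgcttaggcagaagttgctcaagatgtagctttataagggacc
Mmp27, chr9:7571296-7571405, plus strand: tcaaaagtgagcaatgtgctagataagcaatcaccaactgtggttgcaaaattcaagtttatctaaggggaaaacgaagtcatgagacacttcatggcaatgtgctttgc
Mmp20, chr9:7628131-7628240, plus strand: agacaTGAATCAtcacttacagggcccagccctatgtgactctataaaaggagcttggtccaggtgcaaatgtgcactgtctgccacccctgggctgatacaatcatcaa
Mmp7, chr9:7691990-7692099, plus strand: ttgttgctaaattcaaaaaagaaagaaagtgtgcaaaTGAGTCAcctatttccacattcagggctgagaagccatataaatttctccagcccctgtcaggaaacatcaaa
The letters stand at -35 in Mmp13, -44 in Mmp12, -46 in Mmp3 and -63 in Mmp10, counted from the start to the first base. They also stand at -93 in Mmp1b, -73 in Mmp1a, -95 in Mmp20 and -63 in Mmp7, the 4 cluster genes at background on both arrays. The windows of Mmp8 and Mmp27 do not hold them. For Mmp12 and Mmp7 RefSeq gives more than 1 start, and the window that holds the letters is printed. Over the full windows, 8 of the 10 cluster genes held TGANTCA, beside 4 of 43 other members with a window and 8.97% of 27025 genes (7.81% of 32851 windows). Of the members at least 2-fold higher 2 of 9 with a window held it. The TATA box letters TATAAA, which share no base with TGANTCA in the printed stretches, occurred on either strand in the windows of 28.3% of 53 members and 15.7% of all genes. This share came largely from the cluster, where only Mmp27 lacked TATAAA. Of the 43 other members with a window only Mmp21, Adam6a, Adam6b, Adam29, Adamts1 and Adamtsl2 held it. A match is a description of the sequence and not a bound site. The AP-1 letters thus occurred in 4 of the 6 cluster genes measured on at least 1 array and in all 4 that were at background.

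The inhibitors were measured beside their targets. Timp1, the inducible inhibitor of many MMPs, had 84.6% in ob/ob LSEC and 15.3% in WT LSEC, a log2 difference of 2.47 ± 0.21, or 5.54-fold. Timp2, which blocks MMPs and also takes part in Mmp2 activation by Mmp14, had 38.7% in ob/ob LSEC and 16.6% in WT LSEC, a difference of 1.22 ± 0.21, and its second probe gave 0.94. Timp3, the matrix-bound inhibitor that also acts on Adam17 and on ADAMTS enzymes, had 1126% in ob/ob LSEC and 1211% in WT LSEC, a difference of -0.11 ± 0.20. Thus 2 of the TIMPs were brighter in ob/ob LSEC, and the difference of Timp3 was smaller than its scanner error. Timp4 had 1.57% in ob/ob LSEC and 1.42% in WT LSEC, and was well above background in ob/ob LSEC only. Its bound of at least 1.11-fold was lost with array-median scaling, with quantile normalization and with both uses of normexp.

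Adamdec1, a soluble relative of the ADAMs first described in human dendritic cells and macrophages, had the largest difference of all members. Its scaled intensity was 84.6% in ob/ob LSEC and 3.05% in WT LSEC, a log2 difference of 4.79 ± 0.25, or 27.7-fold, which ranked 5 among the 18139 genes. A second probe was well above background in ob/ob LSEC only, with 6.45% in ob/ob LSEC and 0.941% in WT LSEC, at least 5.17-fold higher. On chromosome 14 the gene lies between Adam7 and Adam28, both of which were at background on both arrays. The 12 measured macrophage markers ran from 0.38 to 4.63 in the same comparison, with a median of 1.78. Their highest was Timd4, a receptor of resident macrophages, with 36.2% in ob/ob LSEC and 1.46% in WT LSEC. That WT value lies close to the dimmest measured signal of the WT array. A link between Adamdec1 and the macrophage markers was not tested.

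Adam8, a leukocyte surface protease that sheds adhesion molecules, had 295% in ob/ob LSEC and 91.2% in WT LSEC, a log2 difference of 1.69 ± 0.20. The sheddases of most cells were close to even. Adam10, which releases Notch, cadherins and many other proteins, had 776% in ob/ob LSEC and 899% in WT LSEC, a difference of -0.21 ± 0.20. Adam17, which releases Tnf and ligands of the epidermal growth factor receptor, had 18.1% in ob/ob LSEC and 16.7% in WT LSEC, a difference of 0.12 ± 0.21, with 0.48 at its second probe. Neither of these sheddases passed 2-fold at any probe. Adam9 had 979% in ob/ob LSEC and 1127% in WT LSEC (-0.20), and Adam15 had 888% in ob/ob LSEC and 892% in WT LSEC (-0.01). These 4 ADAMs all lay within 2-fold. Adam19 (meltrin beta) had 313% in ob/ob LSEC and 199% in WT LSEC, a difference of 0.65 ± 0.20. Adam33, a gene linked to asthma in humans, had 2.84% in ob/ob LSEC and 1.87% in WT LSEC (0.60 ± 0.30). Adam12 (meltrin alpha) was measured by 1 of its 3 probes, with 2.22% in ob/ob LSEC and 1.35% in WT LSEC, at least 1.65-fold higher in ob/ob LSEC.

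Adam23, an ADAM without protease activity that acts as a receptor for neuronal LGI proteins, was the only ADAM at least 2-fold lower. It had 35.0% in ob/ob LSEC and 119% in WT LSEC, a log2 difference of -1.77 ± 0.20, which ranked 55 from the lowest of 18139 genes. Its second probe gave the same direction, with 1.36% in ob/ob LSEC and 3.30% in WT LSEC, a difference of -1.28. The related Adam11 had 10.4% in ob/ob LSEC and 11.4% in WT LSEC, a difference of -0.14, and Adam22 was at background on both arrays. Of 20 ADAMs known mainly from testis and epididymis, 13 were at background on both arrays, 5 were measured on both with differences between -0.29 and 0.50, and Adam26a and Adam30 passed background in ob/ob LSEC only. Of these 5, Adam32 had 12.7% in ob/ob LSEC and 15.4% in WT LSEC (-0.29), and Adam1a had 8.11% in ob/ob LSEC and 5.73% in WT LSEC (0.50). Adam4 had 5.05% in ob/ob LSEC and 5.83% in WT LSEC (-0.21). The germ-cell ADAMs were thus mostly at background, and none of those measured on both arrays differed by 2-fold.

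Among the ADAMTS enzymes that cut proteoglycans such as versican and aggrecan, Adamts4 had 1007% in ob/ob LSEC and 381% in WT LSEC, a log2 difference of 1.40 ± 0.20. Adamts1, which acts on the same substrates, had 1434% in ob/ob LSEC and 1417% in WT LSEC, a difference of 0.02. Adamts9 had 201% in ob/ob LSEC and 139% in WT LSEC (0.54). Adamts4 was thus the only measured enzyme of this class past 2-fold. Adamts5, the neighbour of Adamts1 on chromosome 16, had 1.73% in ob/ob LSEC and 1.15% in WT LSEC, was well above background in ob/ob LSEC only and was at least 1.39-fold higher. Adamts8, Adamts15 and Adamts20 of the same class were at background on both arrays.

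The procollagen N-propeptidases, which trim new fibrillar collagen so that it can assemble, were both higher where measured. Adamts2 had 64.8% in ob/ob LSEC and 21.7% in WT LSEC, a log2 difference of 1.58 ± 0.21. Adamts14 had 72.7% in ob/ob LSEC and 31.1% in WT LSEC, a difference of 1.23 ± 0.20. Adamts3, the third enzyme of this class, was at background on both arrays. One of the 2 Adamts2 probes was at background, with 0.310% in ob/ob LSEC and 0.262% in WT LSEC.

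Adamts13, which cuts von Willebrand factor and is known to be made by hepatic stellate cells, had 11.96% in ob/ob LSEC and 3.75% in WT LSEC, a log2 difference of 1.67 ± 0.23. Its other probe was at background on both arrays, with 0.176% in ob/ob LSEC and 0.263% in WT LSEC. Its substrate Vwf had a difference of 1.44 on the same scale. Adamts7, which cuts cartilage oligomeric matrix protein, had 180% in ob/ob LSEC and 190% in WT LSEC, a difference of -0.08. The other 7 genes of the remaining ADAMTS class were at background on both arrays. Of 5 ADAMTS-like proteins, which lack the protease domain, Adamtsl4 had 4.80% in ob/ob LSEC and 3.48% in WT LSEC (0.46), Adamtsl5 had 3.42% in ob/ob LSEC and 3.03% in WT LSEC (0.17), and 3 were at background.

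Mep1a, the alpha subunit of meprin, an astacin protease known from the brush borders of kidney and intestine, had the most negative difference of all members measured on both arrays. It had 5.85% in ob/ob LSEC and 27.8% in WT LSEC, a log2 difference of -2.25 ± 0.21, or 4.75-fold lower in ob/ob LSEC, ranking 26 from the lowest. The beta subunit gene Mep1b was at background on both arrays. Of 4 astacins outside the named set, 2 were measured, and Tll1, a procollagen C-proteinase, was lower in ob/ob LSEC at -1.92, with 1.40% in ob/ob LSEC and 5.30% in WT LSEC.

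The 14 members past 2-fold were not drawn from 1 range of brightness. Split into 4 quartiles of mean signal over all measured genes, from dim to bright, the members at least 2-fold higher numbered 3 of 11, 5 of 12, 3 of 8 and 1 of 7. The shares of all genes that were at least 2-fold higher in the same quartiles were 8.93%, 9.33%, 3.97% and 1.06%. Both lower members lay in the second quartile. The dimmer members depended most on how background was removed. With the normexp background model in place of the scanner's, and the same scaling, Mmp27 came to 0.34, Adamts13 to -0.31 and Mmp2 to -0.95. Under that model Adamts2, Timp2, Adamts14 and Mmp10 also fell under 2-fold, and Adamdec1 came to 2.13. Scaling each array on its median took Adamts14, Mmp10, Mmp2 and Timp2 under 2-fold, and moved the median of all genes to -0.40. Quantile normalization took Mmp2 under 2-fold, and after normexp it took Adamts13, Adamts14, Mmp10, Mmp2 and Timp2 under it. Adamdec1, Timp1, Mmp13, Adam8, Adamts4, Mep1a and Adam23 stayed past 2-fold on the same side in every setting that gave them a value.

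**Figure D5:**
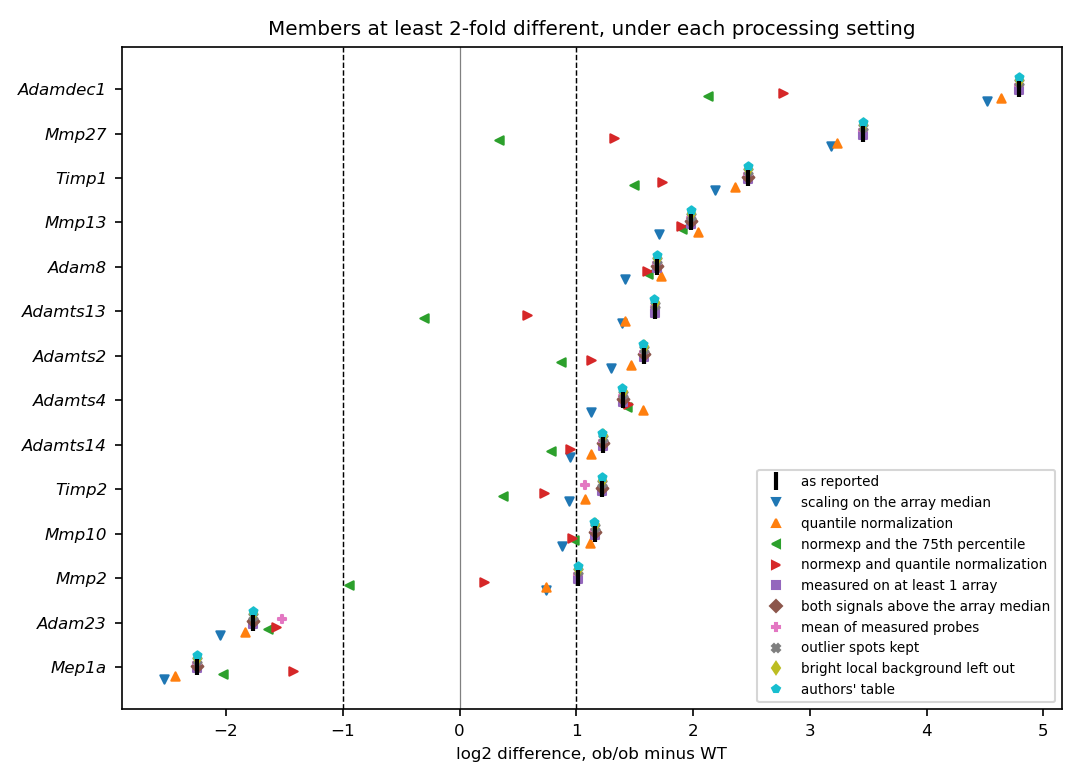
Log2 difference, ob/ob minus WT, of the 14 members at least 2-fold different, with a black bar for the value as reported and a coloured symbol for each of 10 alternatives, set slightly apart in height. Dashed lines mark 2-fold. The green and red symbols of the normexp background model sit farthest from the bars for Adamdec1, Mmp27, Adamts13 and Mmp2, while the symbols of Mmp13, Adam8 and Adamts4 stay together.

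Genes that switch these proteases on, block them or are cut by them were read from 6 lists. In the plasminogen system, whose product plasmin activates several MMP zymogens, 5 of 9 measured genes were at least 2-fold higher in ob/ob LSEC and none lower (median 1.59). Plasminogen itself, Plg, had 16.4% in ob/ob LSEC and 1.94% in WT LSEC, a log2 difference of 3.08. Its activator Plat was at 1.59, with 12.7% in ob/ob LSEC and 4.20% in WT LSEC. Serpinb2, an inhibitor of plasminogen activation, was higher too, with 217% in ob/ob LSEC and 29.0% in WT LSEC (2.90). The plasmin inhibitor Serpinf2 was at 1.59, with 39.4% in ob/ob LSEC and 13.1% in WT LSEC. Plg, Serpinf2 and Ahsg are known as products of hepatocytes, whose markers were also higher in the ob/ob preparation. Of 4 measured genes on the list of other inhibitors, which also holds the enhancers of procollagen processing Pcolce and Pcolce2, 3 were at least 2-fold higher, the hepatocyte plasma protein Ahsg (1.93), the membrane-anchored MMP inhibitor Reck (1.73, with 6.29% in ob/ob LSEC and 1.89% in WT LSEC) and Pcolce2 (1.69).

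Of the proteins that mature or steer Adam10 and Adam17, 8 were measured on both arrays and none differed by 2-fold (median -0.47), while Tspan33 was at least 4.56-fold higher in ob/ob LSEC. Among their shed substrates 10 of 25 measured genes were at least 2-fold higher and 1 was lower (median 0.60). The epidermal growth factor receptor ligands Ereg and Areg were at 2.44 and 1.70, the receptor Axl at 1.74 and the hyaluronan receptor Cd44 at 1.43. Ereg had 251% in ob/ob LSEC and 46.1% in WT LSEC, and Areg had 16.8% in ob/ob LSEC and 5.15% in WT LSEC. Notch1 was the lower one, at -1.10, with 13.6% in ob/ob LSEC and 29.2% in WT LSEC. Of the matrix substrates 8 of 16 measured genes were at least 2-fold higher and none lower (median 0.92). Osteopontin, Spp1, had 390% in ob/ob LSEC and 29.5% in WT LSEC (3.73), and fibronectin, Fn1, had 266% in ob/ob LSEC and 50.3% in WT LSEC (2.40). The fibrillar collagen genes Col3a1 (2.92) and Col1a2 (2.04) were higher and Col1a1 was at least 8.13-fold higher in ob/ob LSEC. These 3 collagens are also on the stellate cell and fibroblast list, and Spp1 is on the cholangiocyte list.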

How the data were processed

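RNA of LSEC from 1 ob/ob and 1 WT mouse was hybridised to 1-colour Agilent mouse arrays (design 026655, probe coordinates on mm9, per the file headers), 1 array each and on the same slide. The deposited scanner files hold the spot intensity on a linear scale. Agilent Feature Extraction 11.0.1.1, per the submitters' processing notes, subtracted background and flagged spots, per the file headers, without scaling between arrays. The ratio of the deposited scanner intensity to the authors' table of processed values was constant within an array (1433 for ob/ob and 988.6 for WT, with ranges of 1.42% and 0.978% of the median), so that table holds intensity divided by the 75th percentile, uncentred, with column medians of 0.648 for ob/ob and 0.614 for WT. Its 24868 features were all well above background on both arrays.

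Here log2 intensity minus log2 of the 75th percentile over non-control spots was used. Spots marked uneven or outlying on either array (120 on the ob/ob array and 148 on the WT array) were dropped, 4 of them at members. Spots of a probe were averaged, a probe was taken as measured if more than 50% of the remaining spots cleared the scanner's background flag, and a gene took its brightest measured probe. No spot was saturated. Genes were renamed through accessions in a RefSeq table (GRCm38.p6), 26055 of 39429 probes by the main and 109 by another accession, while 8543 kept the file's name and 4722 had none. Differences are ob/ob minus WT, counted at 2-fold, with no test. The calling step was run on simulated data with changes well past 2-fold in the brighter genes. The simulation held no changed dim genes, no folds near 2 and no difference in background, so it cannot speak to those. Alternatives used the array median, quantile normalization, normexp (offset 50, limma 3.58.1), other filters and the authors' table. Tools were Python 3.11.15, pandas 2.3.3 and R 4.3.3. Every member may be named; of the lists, genes at least 2-fold different. List genes measured on 1 array or at background, and the sinusoidal markers, were named after their values were seen. The number of arrays limits the precision. The members and lists were chosen with earlier results of these data known. Values of some list genes are not reported here.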

Additional observations from a re-analysis of the deposited data

How the results depend on the processing

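Each member difference was recomputed under 10 alternatives, which gave 370 values. The filters, the mean of probes and the authors' table leave most member values nearly as they were by their design. The pooled counts therefore do not measure robustness. Nearly all values that moved by more than the scanner error came from array-median scaling, quantile normalization and normexp. Of the 370 values, 282 moved by less than the scanner error SD of the same gene, 86 moved by more and 2 changed sign after a call. Both sign changes came with normexp background and 75th-percentile scaling (Adamts13 at -0.31 and Mmp2 at -0.95). In that setting the median of the members was -0.0127, 5 were at least 2-fold higher and 9 lower, and of the genes on the pathway lists 12 were higher. All genes split there into 2.03% higher and 21.1% lower. With normexp and quantile normalization the median was 0.19, 9 members were past 2-fold, 7 of them higher, and 17 pathway genes were higher. Of all genes 2.80% were higher with these 2 steps and 0.717% lower. Scaling on the array median gave a member median of 0.24, with 4.23% of all genes higher and 5.39% lower. The cause of these shifts was not tested. Counting genes measured on at least 1 array gave 17 members higher and 3 lower of 49, beside 10.5% higher and 3.25% lower of 20599 genes. That setting uses signals at background as they stand, so a call can pass 2-fold where the bound does not. Mmp15, Mmp23, Mmp25 and Adam26a were gained there, with bounds under 2-fold. The authors' table, the mean of probes, and keeping outlier spots or leaving out bright local background gave the same 14 calls, which they could hardly alter. That table holds the same intensities on the same scale, and only 4 members had more than 1 probe measured on both arrays. The 4 dropped member spots were all of Mmp9, which is not among the 14. Local background at member spots reached at most 68.0 on the ob/ob array and 70.5 on the WT array. No paired analysis was possible because each genotype has 1 array. Replicates could not be left out for the same reason. Of 44 recomputed member bounds 42 moved by more than the scanner error, and with normexp and 75th-percentile scaling no member measured in ob/ob LSEC only kept a bound above 1, while Mmp15 kept a log2 bound of 1.81 toward WT LSEC. The technical spread was an SD of 0.05 for repeated spots (259 probes) and 0.33 between probes of one gene (3693 genes), and holds no spread between mice.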
